A study of Mus musculus with 12 samples.

Results

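Among 6786 genes named on a mouse clone array, 39 belong to the machinery of apoptosis, of the p53 response and of tumour necrosis factor (TNF) receptors. They are the genes whose single symbol in the array annotation begins with a name of these families (such as Bnip, Casp, Birc, Traf, Tnfrsf, Mdm, Pdcd, Btg or Sesn). The rule used names and no measured values. These genes were measured by 55 clones of 9191 with 1 gene, 14 genes by several clones and 25 by 1. The array names few of the best-known regulators. Of 31 core genes, 11 were measured, and p53 itself (Trp53), Bax, Bak1, Bcl2, Bcl2l1, Casp8, Tnfrsf1a and Ripk1 were not analysed here.

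The study set RNA of the renal medulla, the inner kidney where urine is concentrated, of 3 water-restricted (WR) mice against that of 3 control mice. Each of the 9 possible pairs of mice was hybridised to a 2-colour array, 3 of the pairs in both dye orientations, which gives 12 arrays and 4 arrays for each mouse. The labels state no strain, sex or age of the mice and no length of the restriction. Each array gives only the ratio between a pair of mice, so the medulla label could not be checked against the absolute level of markers, and in whole tissue fewer cells of a type and less RNA per cell cannot be told apart.

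Apoptosis can start from within or from outside the cell. In the mitochondrial route, proteins of the Bcl2 family release cytochrome c, which activates caspase 9. In the receptor route, ligands of the TNF family bind receptors that recruit adaptors such as Fadd and Traf proteins, and these lead to caspases or to NF-kappa B. p53, held down by Mdm2 and Mdm4, induces growth arrest and death genes after stress, and cells of the renal medulla live with high salt, high urea and low oxygen, conditions known to engage these pathways.

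All values are log2 ratios, the base being taken as 2 because no source states it. A level was fitted for each mouse such that the 6 levels of a gene sum to 0, and the difference is the mean of the 3 WR mice minus that of the 3 control mice. Which dye stands on top of the deposited ratio is unknown. A positive value is therefore higher in water restriction if Alexa Fluor 546 is the numerator, and lower if Alexa Fluor 647 is. All values below carry this 1 sign unless said to be read as already turned, so "positive side" and "negative side" name sides and not directions of change. The sources also do not state whether the authors had already turned the arrays with the control mouse in Alexa Fluor 546. They were taken as not turned. The other reading changes each gene separately, with Tnfrsf19 then at -0.15 and Btg2 at 0.68. Under it, a separation of the dye orientations, given below as a dye term, would count as a difference between the groups. Dye and group difference therefore cannot be told apart without knowing which reading holds.

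Array medians ran from -0.04 to 0.06. The array pairing WR mouse 2 with control mouse 2 was the widest, with an SD over spots of 1.21, and the 11 others had 0.515 to 0.764. It is called the array of mice 2 and 2 below. For 11 of the 39 genes, the value farthest from 0 came from that array, as it did for 27.6% of all genes. Without it, 8 of the 39 differences (20.5%) lay on the other side of 0, as did 17.1% over all genes. They are those of Tnfrsf9, Tnfrsf12a, Traf6, Birc6, Phlda2, Btg4, Pdcd2l and Pdcd5, which are given below with and without it.

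The sequences of 4 promoters are shown first because they belong to the genes with the smallest p on either side or to the usual readout of p53. Tnfrsf19 and Btg2 were the only 2 of the 39 with an unadjusted p under 0.05, Bnip3 had the smallest p on the positive side, and Mdm2 is a classical p53 target. Windows of 250 bases before the transcript start, from RefSeq on GRCm38.p6, were found for 34 of the 39 genes, 39 windows in all. Each is printed 5′ to 3′ on the gene's strand, which is the minus strand in all 4 genes. Tnfrsf19 has 2 annotated starts. Capitals mark matches on either strand to the p53 half-site, the kappa B site, the hypoxia response core ACGTG, the tonicity element core TGGAAA and the cyclic AMP response element TGACGTCA. The last was added after the Btg2 sequence had been read. A pair of overlapping ACGTG matches on opposite strands appears as 1 run of capitals.
Tnfrsf19, first window, chr14:61046856-61047105: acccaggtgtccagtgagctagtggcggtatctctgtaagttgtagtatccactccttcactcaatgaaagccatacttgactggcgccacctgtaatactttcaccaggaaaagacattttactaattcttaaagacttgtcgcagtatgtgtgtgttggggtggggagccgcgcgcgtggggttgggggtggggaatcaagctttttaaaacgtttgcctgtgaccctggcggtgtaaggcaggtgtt
Tnfrsf19, second window, chr14:61037988-61038237: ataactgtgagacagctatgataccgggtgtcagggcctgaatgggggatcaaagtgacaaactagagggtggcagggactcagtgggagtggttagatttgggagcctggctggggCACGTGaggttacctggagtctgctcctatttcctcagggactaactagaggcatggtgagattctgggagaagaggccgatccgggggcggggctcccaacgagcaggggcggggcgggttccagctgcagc
Btg2, chr1:134079156-134079405: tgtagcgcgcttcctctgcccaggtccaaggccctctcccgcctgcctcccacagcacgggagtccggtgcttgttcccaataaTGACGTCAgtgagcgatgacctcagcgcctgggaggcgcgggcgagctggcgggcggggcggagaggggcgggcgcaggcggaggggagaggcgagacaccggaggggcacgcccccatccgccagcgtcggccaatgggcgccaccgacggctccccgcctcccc
Bnip3, chr7:138909507-138909756: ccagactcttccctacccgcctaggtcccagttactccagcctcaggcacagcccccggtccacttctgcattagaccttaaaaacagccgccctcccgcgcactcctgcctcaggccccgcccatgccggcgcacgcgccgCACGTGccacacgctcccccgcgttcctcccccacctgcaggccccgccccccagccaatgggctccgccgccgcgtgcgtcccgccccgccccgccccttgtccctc
Mdm2, chr10:117710759-117711008: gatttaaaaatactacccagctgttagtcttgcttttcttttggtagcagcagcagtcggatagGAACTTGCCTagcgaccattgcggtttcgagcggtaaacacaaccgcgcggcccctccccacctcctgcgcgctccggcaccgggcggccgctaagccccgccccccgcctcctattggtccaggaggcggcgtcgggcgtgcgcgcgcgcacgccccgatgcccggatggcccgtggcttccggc

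The Btg2 window holds the cyclic AMP element at positions -166 to -159 relative to the start, as 1.55% of 32851 windows of all genes do. The Bnip3 window holds ACGTG on both strands between positions -108 and -103. The second Tnfrsf19 window holds it on both strands between -133 and -128, and the Mdm2 window holds a p53 half-site at -186 to -177. Over the 39 windows, 25.6% held ACGTG, against 16.6% of all windows, 20.5% held TGGAAA, against 18.6%, 10.3% held the p53 half-site, against 7.13%, and 10.3% held the kappa B site, against 7.25%. The 4 genes with a p53 half-site were Birc5, Mdm2, Pdcd7 and Sesn1. These matches are letters in a window and were not set against the measured differences.

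None of the 39 genes passed the test between WR and control mice after adjustment over all 6786 genes (limma, smallest adjusted p = 0.771). No gene of the whole array did, so 0% were called. At an unadjusted p under 0.05 there were 2 of the 39, against 4.97% of all genes, and both lay on the negative side, where 1.75% of all genes lay. The differences were small. Their median was -0.05, against 0.0034 over all genes, and the median size without regard to sign was 0.09, against 0.13. On the positive side lay 18 of the 39 (46.2%), against 50.7% of all genes. The 95% interval of the difference stayed within 1 log2 unit, a 2-fold change, of 0 for 34 of the 39 (87.2%), against 90.2% of all genes. The 5 others were Tnfrsf19, Tnfrsf9, Bnip3l, Perp and Pdcd5. In 4 of the 39 genes the levels of the 3 WR mice and of the 3 control mice did not overlap, against 9.8% of all genes. These were Tnfrsf19, Btg2, Pdcd7 and Traf3ip1, all on the negative side, where 3.86% of all genes lay (5.94% on the positive side). Without the array of mice 2 and 2, Pdcd7 overlapped and 3 remained, against 11.1% of all genes.

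**Figure D1:**
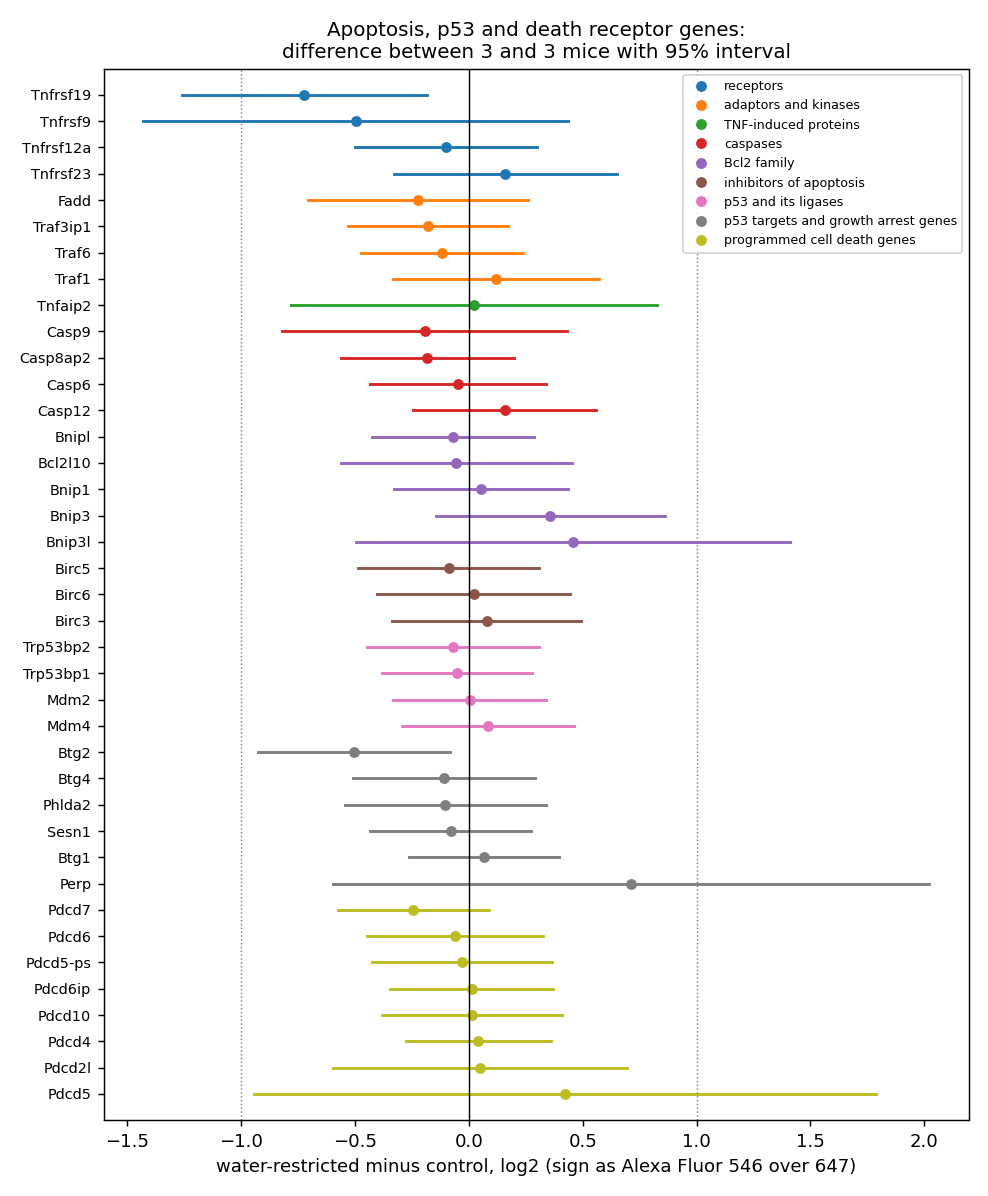
Difference between water-restricted and control mice for each of the 39 genes, on the log2 scale with the sign of Alexa Fluor 546 over 647, coloured by role; points are differences between the means of 3 and 3 mice, bars are 95% intervals and dotted lines mark 1 log2 unit. The bars of Tnfrsf19 and Btg2 lie left of 0, and those of Perp, Pdcd5, Bnip3l and Tnfrsf9 are the widest.

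Of the TNF receptors, 4 were measured, and 3 were on the negative side. Tnfrsf19, also called Troy, a receptor that signals through Traf proteins and whose ligand is not settled, had levels of -0.74, 0.13 and -0.47 in WR mice 1, 2 and 3, against 0.56, 0.25 and 0.27 in control mice 1, 2 and 3. All 3 WR mice were below all 3 control mice, with mouse 2 close to the lowest of them. The difference was -0.72 (SE 0.23, n = 3 mice per group, 95% interval -1.26 to -0.18, limma adjusted p = 0.771), with a negative ratio on 11 of 12 arrays. Its ratios in the 2 dye orientations overlapped. With Alexa Fluor 546 on the WR mouse the lowest, median and highest ratios were -1.51, -0.92 and -0.12, and with Alexa Fluor 647 on it they were -1.23, -0.78 and 0.23. In a fit with random mouse effects, which uses the 12 arrays directly, Tnfrsf19 was the 1 gene of the 39 that passed (-0.79, SE 0.18, limma adjusted p = 0.0351; Btg2 -0.50, adjusted p = 0.148). That fit called 1.65% of all genes. It takes the ratio of the variance between mice to that between arrays as the same for all genes. Its degrees of freedom come from the arrays and not from the 3 mice per group. Its p-values can therefore be too small for genes whose mice vary more. Over all 18 alternatives the limma adjusted p of Tnfrsf19 ran from 0.0351 to 0.9999 and its difference from -1.01 to -0.15. The -0.15 came from ratios read as already turned to water-restricted over control.

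The other receptors did not stand out. Tnfrsf9, or 4-1BB, a costimulatory receptor of T cells, had -0.50 (SE 0.41), but its value rested on 1 array. Its levels were 0.10, -1.16 and 0.32 in the WR mice, against -0.09, 0.85 and -0.02 in the control mice. On the array pairing WR mouse 2 with control mouse 2 its ratio was -4.08, with its duplicate spots at -4.34 and -3.81, while the other 11 arrays gave -0.47 to 1.11. Without that array the difference was 0.03 (SE 0.21). Tnfrsf23, a mouse decoy receptor for the death ligand Tnfsf10, had 0.16 (SE 0.21), with levels of -0.11, -0.10 and 0.45 in the WR mice, against -0.26, -0.19 and 0.21 in the control mice. The groups overlapped, and mouse 3 was the highest in each. Tnfrsf12a, the receptor of the cytokine Tweak, had -0.10, and 0.02 without the array of mice 2 and 2.

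The differences of the 4 adaptors behind the receptors ran from -0.22 to 0.12. Fadd, which links death receptors to caspase 8, had levels of -0.0050, -0.47 and 0.14 in the WR mice, against 0.07, -0.11 and 0.38 in the control mice. The groups overlapped, and the difference was -0.22 (SE 0.21, 95% interval -0.71 to 0.26). Its ratio was -1.62 on the array of WR mouse 2 and control mouse 3 and -0.40 to 0.41 on the others. Traf6, a ubiquitin ligase of interleukin 1 and Toll-like receptor signalling, had -0.12 (SE 0.15, 95% interval -0.47 to 0.24), and 0.0045 without the array of mice 2 and 2. Traf3ip1, a Traf3-binding protein of cilia, had levels of -0.03, -0.22 and -0.02 in the WR mice, against 0.0065, 0.01 and 0.25 in the control mice. Its groups did not overlap, yet the difference was only -0.18 (SE 0.15, limma adjusted p = 0.996), and its 2 clones gave -0.15 and -0.21. Traf1, an adaptor induced by NF-kappa B, had 0.12. Tnfaip2, a TNF-induced gene, had 0.02 (SE 0.35), an SE exceeded in the 39 only by Tnfrsf9, Bnip3l, Perp and Pdcd5. It had 0.78 in WR mouse 1, against -0.30 and -0.45 in the 2 others of its group, and 2.36 on the array of WR mouse 1 and control mouse 1.

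**Figure D2:**
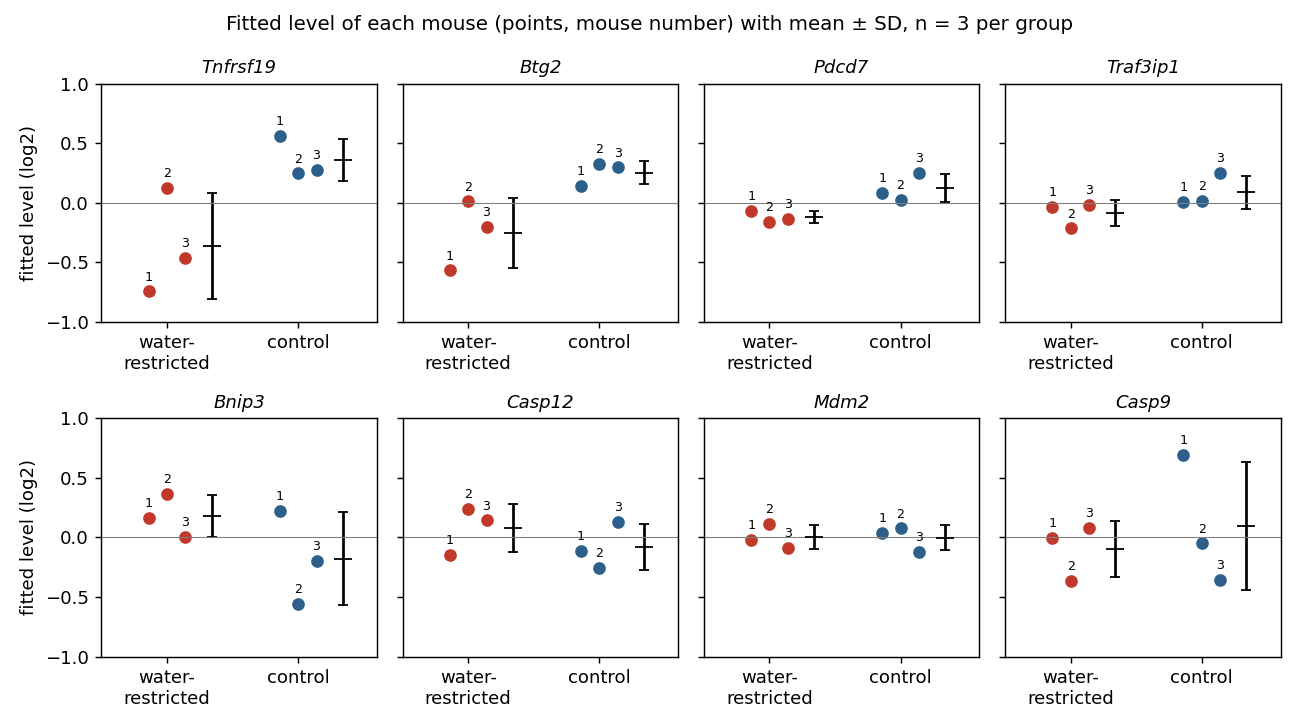
Fitted levels of 8 genes in each mouse on the log2 scale, WR mice on the left and control mice on the right, with the mouse number above each point and the mean ± SD (n = 3) as a bar. The groups do not overlap in the upper row (Tnfrsf19, Btg2, Pdcd7 and Traf3ip1), and they overlap in the lower row (Bnip3, Casp12, Mdm2 and Casp9).

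Of the 3 caspases and 1 caspase-binding protein measured, 3 were on the negative side, and none reached an unadjusted p under 0.05. Casp9, the initiator caspase of the mitochondrial route, had levels of -0.0059, -0.37 and 0.08 in the WR mice, against 0.70, -0.05 and -0.35 in the control mice. Control mouse 1 was the highest and control mouse 3 close to the lowest, so that the control mice differed more among themselves than the groups did (difference -0.19, SE 0.27). On 1 array, of WR mouse 2 and control mouse 1, it had -2.88, and on the dye-swapped array of these mice -0.16. Casp12, which in rodents sits at the endoplasmic reticulum and is linked to its stress, had levels of -0.15, 0.24 and 0.14 in the WR mice, against -0.11, -0.25 and 0.13 in the control mice. The groups overlapped, and the difference was 0.16 (SE 0.18, 95% interval -0.24 to 0.56). Casp6, an executioner caspase, had -0.05, and Casp8ap2, or Flash, a protein that binds caspase 8 and acts in histone mRNA processing, had -0.18.

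Among the 5 genes of the Bcl2 family, the mitophagy receptors Bnip3 and Bnip3l had the largest values. Both are known targets of the hypoxia response and direct mitochondria to autophagy. Bnip3 had levels of 0.17, 0.36 and 0.0074 in the WR mice, against 0.22, -0.56 and -0.20 in the control mice. Control mouse 1 lay within the water-restricted range and the other control mice below it. The difference was 0.36 (SE 0.22, 95% interval -0.14 to 0.86, limma adjusted p = 0.996), with a positive ratio on 10 of 12 arrays, and 0.31 without the array of mice 2 and 2.

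Bnip3l, or Nix, had 0.46 (SE 0.42), with levels of -0.04, 1.03 and -0.31 in the WR mice, against 0.17, -1.01 and 0.15 in the control mice. Mouse 2 of each group stood far out, in opposite directions. On their shared array the ratio was 3.45, against -0.59 to 0.47 on the other 11, and without it the difference was 0.04 (SE 0.14). That ratio came mostly from 1 of 2 clones, whose 2 spots read 10.5 and 1.51. The 2 spots of the other clone read 1.03 and 0.79. The 3 others of the family, Bcl2l10, a Bcl2 relative, Bnip1, a SNARE protein of the endoplasmic reticulum, and Bnipl, ranged from -0.07 to 0.05.

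The inhibitors of apoptosis, which carry the BIR domain, ranged from -0.09 to 0.08. Birc3, a ubiquitin ligase induced by NF-kappa B, had 0.08 (SE 0.18, 95% interval -0.34 to 0.49), and its 2 clones lay on opposite sides, at 0.19 and -0.03. Birc5, or survivin, a mitotic protein, had -0.09 (SE 0.17, 95% interval -0.49 to 0.31), and Birc6, a giant ubiquitin-conjugating member, had 0.02. Without the array of mice 2 and 2 Birc6 had -0.16. On that array the spots of 1 of its 2 clones read 4.02 and 1.26, and those of the other -0.62 and -0.69.

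At the centre of the p53 branch the differences were close to 0. Mdm2, the ubiquitin ligase that degrades p53 and is itself a p53 target, had levels of -0.02, 0.11 and -0.09 in the WR mice, against 0.04, 0.08 and -0.12 in the control mice. The 2 groups spanned nearly the same range, and the difference was 0.0028 (SE 0.15, 95% interval -0.33 to 0.34). Mdm4, its partner, had 0.08 (SE 0.17, 95% interval -0.29 to 0.46), with its 2 clones at 0.10 and 0.07. The p53-binding proteins Trp53bp1, which acts at DNA double-strand breaks, and Trp53bp2, also known as ASPP2, had -0.05 and -0.07.

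Among 6 p53 targets and growth arrest genes, Btg2 had the smallest p. This antiproliferative protein recruits the deadenylase complex to mRNA and is induced early by p53 and by growth signals. Its levels were -0.57, 0.01 and -0.20 in the WR mice, against 0.14, 0.32 and 0.30 in the control mice. The groups did not overlap, and the difference was -0.51 (SE 0.18, n = 3 mice per group, 95% interval -0.93 to -0.09, limma adjusted p = 0.884). With ratios taken as not turned, the value depended on the dyes. With Alexa Fluor 546 on the WR mouse the lowest, median and highest ratios were -0.31, 0.10 and 0.63, and with Alexa Fluor 647 on it they were -2.00, -0.99 and -0.82. The orientations did not overlap, and the dye term was 0.66 (SE 0.12, limma adjusted p = 0.0216). Dye terms passed in 2 of the 39 genes, against 6.62% of all genes. The difference averages both orientations and was 0.16 from the first alone (limma adjusted p = 0.978) and -1.16 from the second alone (adjusted p = 0.334). If the deposited ratios are read as already turned to water-restricted over control, it is 0.68 (limma adjusted p = 0.868), with the opposite sign.

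The other growth arrest genes gave no difference of that size once the widest array was left out. Btg1, a close relative of Btg2, had 0.07 (SE 0.14, 95% interval -0.26 to 0.40), against -0.51 for Btg2 in the same mice. Sesn1, a sestrin that restrains the growth kinase mTORC1, had levels of -0.18, -0.08 and 0.15 in the WR mice, against 0.10, 0.07 and -0.04 in the control mice. The groups overlapped, and the difference was -0.08 (SE 0.15, 95% interval -0.43 to 0.27). Perp, a tetraspan protein of desmosomes induced by p53 and p63, had 0.71 (SE 0.57), the largest value on the positive side. Its levels were -0.26, 1.57 and -0.24 in the WR mice, against 0.16, -1.39 and 0.16 in the control mice, with mouse 2 of each group far from the rest. The array of mice 2 and 2 gave 5.11, with spots at 5.52 and 4.69, and the other 11 arrays -0.16 to 0.58. Without it Perp had 0.11 (SE 0.14). Phlda2, an imprinted growth regulator, and Btg4, a maternal mRNA decay factor of the oocyte, had -0.10 and -0.11. Their ratios on the array of mice 2 and 2 were -1.40 and -1.06, and without it Phlda2 had 0.16, on the other side, and Btg4 0.0068.

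**Figure D3:**
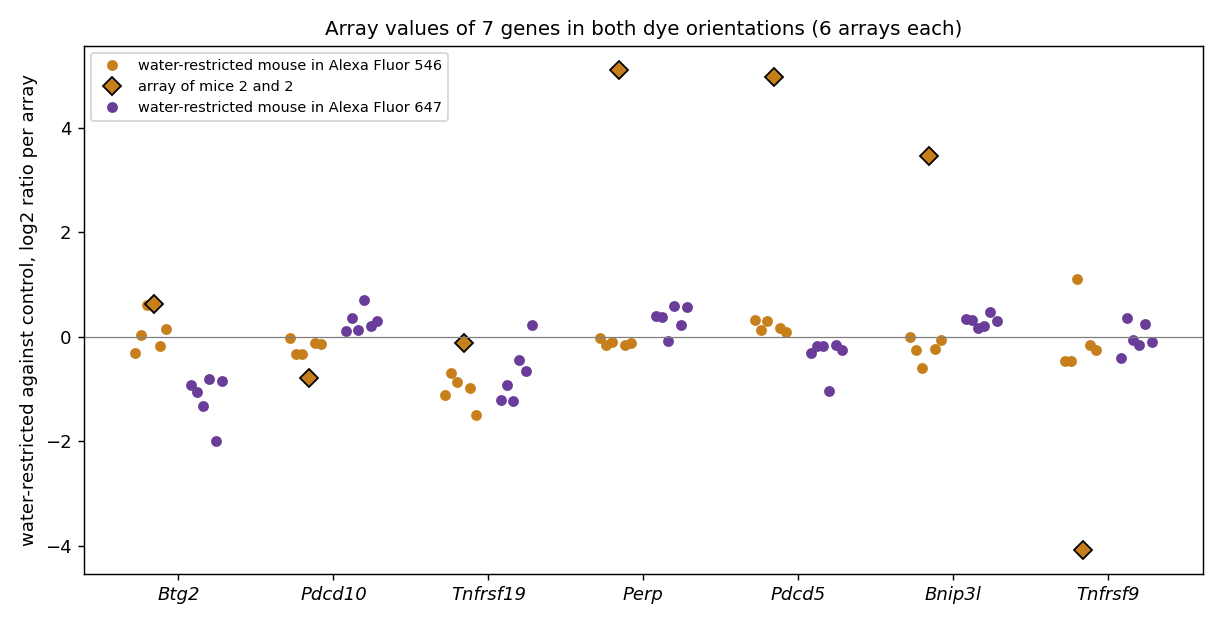
Log2 ratio of water-restricted against control on each array for 7 genes, with the 6 arrays of each dye orientation side by side; diamonds mark the array pairing WR mouse 2 with control mouse 2. Btg2, Pdcd10 and Pdcd5 separate by orientation, Tnfrsf19 does not, and in Perp, Pdcd5, Bnip3l and Tnfrsf9 the diamond, at 5.11, 4.96, 3.45 and -4.08, stands far from the other arrays.

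The 8 programmed cell death genes share a name rather than a pathway. Pdcd7, a component of the minor spliceosome, had levels of -0.07, -0.16 and -0.14 in the WR mice, against 0.09, 0.03 and 0.25 in the control mice. The groups did not overlap, and the difference was -0.24 (SE 0.14, 95% interval -0.57 to 0.09, limma adjusted p = 0.996), with a negative ratio on 10 of 12 arrays. Without the array of mice 2 and 2 it had -0.20, and the groups overlapped, with WR mouse 2 at -0.05 and control mouse 2 at -0.09. Pdcd10, a scaffold protein of the cerebral cavernous malformation complex, had 0.013 (SE 0.17), and its 3 clones gave -0.22, 0.09 and 0.18. Its orientations separated like those of Btg2 but the other way. The ratios ran from -0.78 to -0.03 with Alexa Fluor 546 on the WR mouse and from 0.10 to 0.71 with Alexa Fluor 647 on it (dye term -0.29, SE 0.07, limma adjusted p = 0.0427). With ratios read as already turned, Pdcd10 had a difference of -0.32 (limma adjusted p = 0.868).

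Pdcd5, named here after its values were seen, had 0.42 (SE 0.60), with 1.35 in WR mouse 2 and -1.41 in control mouse 2. Their shared array gave 4.96 (spots 5.50 and 4.42), the other 11 arrays gave -1.04 to 0.33, and without it the difference was -0.04 (SE 0.19). Its orientations also separated, with 0.08 to 4.96 for Alexa Fluor 546 on the WR mouse and -1.04 to -0.16 for Alexa Fluor 647 on it (dye term 0.67, SE 0.26, limma adjusted p = 0.142, and 0.32 with adjusted p = 0.0306 without that array). The clone of the pseudogene Pdcd5-ps, whose sequence may share signal with Pdcd5, had -0.03 and only -0.22 and -0.02 on the spots of that array. The remaining 4, Pdcd2l, Pdcd4 (an inhibitor of translation initiation), Pdcd6 (a calcium-binding protein) and Pdcd6ip (Alix, of the membrane scission machinery), ranged from -0.06 to 0.05. Without the array of mice 2 and 2 Pdcd2l had -0.19.

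**Figure D4:**
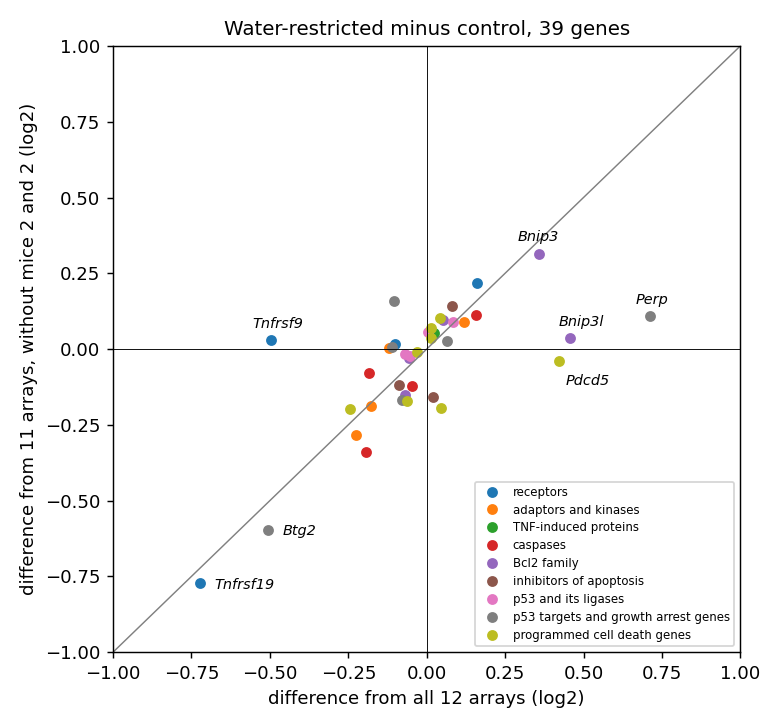
Difference between water-restricted and control mice for the 39 genes from all 12 arrays (horizontal) against that from 11 arrays, leaving out the one that pairs WR mouse 2 with control mouse 2 (vertical), both log2, coloured by role, with the line of equality. Perp, Bnip3l, Pdcd5 and Tnfrsf9 lie between -0.04 and 0.11 on the vertical axis, while Tnfrsf19 (-0.77), Btg2 (-0.60) and Bnip3 (0.31) stay near the line.

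Tested for differences among mice within a group, over the 12 arrays, none of the 39 genes passed (limma F-test, smallest adjusted p = 0.326, for Bnip3). The test called 14 of 6786 genes, or 0.206%. Without the array of mice 2 and 2 it called 50 genes and again none of the 39, the smallest limma adjusted p being 0.0955, for Pdcd2l. Where several clones measured a gene, the differences of its clones spanned a median of 0.22 and at most 0.46 (Bcl2l10), and in 8 of the 14 such genes they fell on both sides of 0. That median span between clones of a gene exceeded the median size of the 39 differences, 0.09. The 2 are unlike measures, since a span sets single clones apart while a difference averages them.

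Other genes of these pathways were taken from lists that the naming rule does not reach. Of 22 further p53 targets 10 were measured, and 0 passed in either direction, with 4 positive and 6 negative and differences from -0.22 to 0.33. Aen, a p53-induced nuclease, had 0.33 (SE 0.16), Ccng1, or cyclin G1, -0.13 (SE 0.23), and Fas, the death receptor, -0.04 (SE 0.21). Of 24 death ligand and NF-kappa B genes 8 were measured, 6 positive and 2 negative, and 0 passed in either direction. Nfkbia, the NF-kappa B inhibitor that NF-kappa B itself induces, had 0.45 (SE 0.27; 0.20 without the array of mice 2 and 2).

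Of 18 genes of the mitochondrial route 14 were measured, 8 positive and 6 negative. None passed in either direction over all genes, and 2 had an unadjusted p under 0.05, both on the positive side, where 3.21% of all genes lay. Cycs, cytochrome c, had levels of 0.13, 0.21 and 0.39 in the WR mice, against -0.15, -0.38 and -0.19 in the control mice. All 3 WR mice were above all 3 control mice (difference 0.48, SE 0.15, limma adjusted p = 0.771, and 0.0187 with random mouse effects). Aifm1, the flavoprotein of the mitochondrial intermembrane space that can be released in cell death, had levels of 0.30, 0.22 and 0.24 in the WR mice, against 0.04, -0.59 and -0.21 in the control mice, again without overlap (difference 0.50, SE 0.19, limma adjusted p = 0.896, and 0.101 with random mouse effects). Both proteins also serve the respiratory chain. Non-overlap was not limited to these genes. In the same list, Vdac2, Api5 and Bag1 did not overlap on the positive side, nor did Bok on the negative side. Over all genes, 5.94% did not overlap on the positive side and 3.86% on the negative side. Htra2, a protease of the intermembrane space, had -0.70 (SE 0.53), and -0.16 without the array of mice 2 and 2. Bok, a Bcl2 relative, had -0.24 (SE 0.14), and Mcl1, a short-lived survival protein of the family, -0.10 (SE 0.15).

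Markers of some cell types lay on one side. None passed over all genes in the comparison of mouse levels (limma), but in the fit with random mouse effects, in which Tnfrsf19 and Cycs passed, 3 of 5 principal cell markers, 3 of 5 proximal tubule markers and 1 of 7 interstitial markers passed too. All 5 measured of 13 principal cell markers were on the negative side, the side of Tnfrsf19 and Btg2, with a mean level of -0.32, -0.19 and -0.47 in the WR mice, against 0.25, 0.34 and 0.39 in the control mice. Of 14 proximal tubule markers 5 were measured, and 4 of these were on the positive side, that of Cycs and Aifm1, with a mean level of 0.39, 0.43 and 0.54 in the WR mice, against 0.22, -0.92 and -0.66 in the control mice. The 2 measured of 12 leukocyte markers, Lyz2 and Fcer1g, had 0.40 and -0.02. Of 6 intercalated cell markers 2 were measured, at -0.74 and 0.06, and of 8 endothelial markers 1, at -0.01. Of 8 interstitial markers 7 were measured, 3 positive and 4 negative, and of 6 thick ascending limb markers 0. The part of cell composition in the results was not tested.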

How the data were processed

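The authors deposited 1 log2 ratio of the 2 channels per spot for 31200 spots on 12 arrays. Its base is not stated and was taken as 2, since values as low as -15.2 lie beyond the natural log of any ratio between scanner signals of the usual bit depth. Scanner signals, background correction, normalization, centring and numerator dye: not given in the sources used here. Per the labels, amplified RNA carried Alexa Fluor 546 in channel 1 and 647 in channel 2. The sign of the 6 arrays with the control mouse in channel 1 was turned. Whether the authors had already turned them is not stated. Ratios of swapped pairs, unturned, correlated over clones at -0.14, 0.13 and -0.13, which does not settle it. The 2 adjacent spots of a clone (correlation 0.362 to 0.684) were averaged to 15600 clones. Of these, 9191 had 1 gene, 254 several and 6155 none in the platform annotation. Symbols of 9085 clones were looked up through Entrez identifiers in RefSeq (GRCm38.p6, names only), and clones were averaged to 6786 genes.

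Mouse levels were fitted by least squares with a dye term, arrays of a swapped pair weighing 0.5. Levels were compared 3 against 3 with limma 3.58.1 (lmFit, eBayes) in R 4.3.3, Benjamini-Hochberg over all genes, threshold 0.05. Every array joins a mouse of each group, which makes mouse levels dependent and intervals and p-values approximate. The F-test between mice of 1 group and the dye term came from a limma fit to the 12 arrays. The steps were tested on simulated data with the same ratio of mouse to array variance for all genes and no outlying array. That test cannot show how the fits behave where these conditions fail. The numbers of mice and of arrays both limit the precision. The 20 genes described singly were those with an unadjusted p under 0.05 or among the 5 smallest p on a side, those past the threshold between mice or for the dye term, and measured core genes. The genes, lists and tests were chosen with earlier results of these data known. Alternatives were another centring, scaling, weighting, orientation, array set, clone summary, mouse block, random mouse effects and leaving out each mouse.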

Additional observations from a re-analysis of the deposited data

Results flagged for a closer look

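In 40 sets of 6 arrays (20 genes in 2 orientations), 5 held 1 array far from the other 5, a gap that chance gives in about 5% of sets. On the array pairing WR mouse 2 with control mouse 2 these were Perp at 5.11 (other arrays of the orientation -0.16 to -0.02), Bnip3l at 3.45 (-0.59 to -0.0075) and Tnfrsf9 at -4.08 (-0.47 to 1.11). Casp9 had -2.88 on the array pairing WR mouse 2, in Alexa Fluor 546, with control mouse 1 (other arrays -0.72 to 0.43), and -0.16 on the dye-swapped array of the same mice. Fadd had -1.62 on the array pairing WR mouse 2 with control mouse 3 (other arrays -0.40 to 0.31). The share of such sets over all genes is not given here. The array of mice 2 and 2 held the value farthest from 0 for 27.6% of all genes, but that share does not count such gaps. Whether the gaps are particular to these genes was not tested.

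Arrays of the 2 orientations differed in Btg2 (dye term 0.66) and in Pdcd10 (-0.29).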

How the results depend on the processing

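The count of the 39 genes that passed for water restriction was 0 in 17 of 18 alternatives and 1, Tnfrsf19, with random mouse effects, which called 112 of all 6786 genes, against 0 otherwise apart from 1 gene each with swapped pairs alone or with Alexa Fluor 647 on the WR mouse. At an unadjusted p under 0.05 the count was 2, but 0 without WR mouse 1 or WR mouse 3, 1 without control mouse 1 or 3, with ratios read as already turned or from Alexa Fluor 546 on the WR mouse alone, and 4 with random mouse effects. The share of all genes at that p is not given for these alternatives, so their counts cannot be set against it. The median difference of the 39 was -0.05, and 0.0842 with ratios read as already turned (all genes 0.0497), 0.0234 from arrays with Alexa Fluor 546 on the WR mouse (all genes 0.0525), 0.0045 without the array of mice 2 and 2, and -0.06 to 0.0040 leaving out each mouse. The dye term passed in 0 of the 39 genes with swapped pairs alone and in 4 without the array of mice 2 and 2 (Btg2, Pdcd10, Bnip3l and Pdcd5). These counts are not set against the share of all genes in the same setting, so they say nothing particular to the 39. Among 20 genes described singly, Tnfrsf19 (-1.01 to -0.15), Bnip3 (0.07 to 0.56) and Perp (0.07 to 1.02) kept their sign but not their size in all 18 alternatives. Mdm2 and Pdcd10, near 0, kept it in 13 and 12. With ratios read as already turned, the sign means water-restricted over control, so a kept sign there does not name the same side.

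Deviations of same-numbered mice correlated at -0.01, -0.54 and -0.11 (0.13, -0.39 and -0.06 without the array of mice 2 and 2). The error of an array enters the levels of its WR and its control mouse with opposite signs. These correlations therefore cannot show whether mouse numbers pair the mice. With the number as a block 0 genes passed, and Tnfrsf19 had -0.72 (limma adjusted p = 0.998). Leaving out each mouse, Tnfrsf19 ranged from -0.97 to -0.53 and Btg2 from -0.64 to -0.35. Signal over background could not be examined, and the cause of these changes was not tested.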
